A study of Homo sapiens with 6 samples.

Results

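The regions described here are the binding regions of FOSL2 and JUNB whose highest point lay deep inside a long gene. FOSL2 is a FOS-family and JUNB a JUN-family subunit of the transcription factor AP-1, and their binding was mapped in HaCaT cells, an aneuploid human skin keratinocyte line that became immortal in culture. A long gene was an autosomal protein-coding gene of at least 300 kb in RefSeq, and a region was deep when its summit (the position of highest signal) lay inside such a gene and at least 50 kb from both its ends. The rule used position only and no measured strength. By this rule 739 of 19122 autosomal protein-coding genes were long, and 7479 of 73751 autosomal FOSL2 regions (10.1%) and 3307 of 39317 autosomal JUNB regions (8.41%) were deep. Together these were 10786 of the 115765 regions in both lists.

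Chromatin immunoprecipitation was followed by sequencing in 3 libraries for each factor, from cells grown in serum-containing medium, with a CST antibody for FOSL2 and an Active Motif antibody for JUNB. The labels name no genetic change and no treatment in either group. Libraries were made by ChIPmentation, where Tn5 transposase tags the chromatin while it is still bound to the beads. A single list of regions per factor stood for its 3 libraries. No value below therefore has a replicate error, the depth is unknown, and intervals and tests over regions cover counting error within these lists only. HaCaT cells are 1 line, so nothing here speaks to variation between keratinocytes of different people, and RNA was not measured, so the labelled cell type was not checked against marker transcripts.

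AP-1 is a dimer of basic leucine zipper proteins. FOS-family members bind DNA only when paired with a partner such as a JUN-family member, while JUN-family members can also pair with each other. In keratinocytes AP-1 acts mostly at enhancers, many of them in introns, which in long genes can stretch over very long distances. Very long genes are rich in neuronal adhesion and synapse genes, but they also include the plakins, polarity proteins and signalling genes that epidermal cells use. The binding site of AP-1 is a short palindrome-like sequence, TGANTCA, in which N is any base and which reads the same on both strands as a class.

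A few deep regions could be shown as sequence, those with a summit inside a RefSeq promoter window (250 bases before to 50 after the start of an annotated transcript, GRCh38.p14), since long genes hold internal starts and nested transcripts. The windows below are internal ones with a deep summit of both factors: the first 5 belong to the long gene itself, and the last pair to long noncoding RNAs inside SYNE1 and DLGAP1. They were chosen for the roles of their genes and for showing windows with and without the site, after their values were seen. Each runs 5′ to 3′ on the strand of its transcript, and capitals mark TGANTCA.
DST: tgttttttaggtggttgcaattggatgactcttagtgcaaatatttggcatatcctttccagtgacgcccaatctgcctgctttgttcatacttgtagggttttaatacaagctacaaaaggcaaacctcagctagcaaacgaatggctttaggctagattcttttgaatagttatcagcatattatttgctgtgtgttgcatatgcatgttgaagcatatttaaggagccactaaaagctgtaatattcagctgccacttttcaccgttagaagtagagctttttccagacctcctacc
PALLD: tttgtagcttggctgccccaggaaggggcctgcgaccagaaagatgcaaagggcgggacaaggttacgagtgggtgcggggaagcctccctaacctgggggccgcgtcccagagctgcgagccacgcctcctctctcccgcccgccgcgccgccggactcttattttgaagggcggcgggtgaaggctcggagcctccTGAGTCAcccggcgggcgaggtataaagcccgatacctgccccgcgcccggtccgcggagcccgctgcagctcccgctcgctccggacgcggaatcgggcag
CREB5: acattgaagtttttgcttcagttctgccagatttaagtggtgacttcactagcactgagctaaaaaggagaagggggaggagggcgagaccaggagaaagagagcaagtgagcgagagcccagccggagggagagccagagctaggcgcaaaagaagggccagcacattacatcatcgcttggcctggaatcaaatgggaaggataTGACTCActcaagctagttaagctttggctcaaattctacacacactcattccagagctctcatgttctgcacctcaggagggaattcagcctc
VAV3: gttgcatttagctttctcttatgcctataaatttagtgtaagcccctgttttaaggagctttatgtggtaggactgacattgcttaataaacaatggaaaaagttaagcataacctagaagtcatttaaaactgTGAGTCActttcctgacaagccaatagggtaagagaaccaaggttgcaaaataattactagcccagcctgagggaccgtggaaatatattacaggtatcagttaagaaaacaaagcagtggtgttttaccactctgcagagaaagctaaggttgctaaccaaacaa
KIAA1217: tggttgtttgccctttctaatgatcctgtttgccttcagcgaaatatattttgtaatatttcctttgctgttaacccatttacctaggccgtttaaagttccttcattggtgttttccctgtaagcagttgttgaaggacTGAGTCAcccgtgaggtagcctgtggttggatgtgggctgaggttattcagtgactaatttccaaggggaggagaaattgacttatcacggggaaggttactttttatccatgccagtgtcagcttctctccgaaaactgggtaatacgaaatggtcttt
SYNE1-AS2: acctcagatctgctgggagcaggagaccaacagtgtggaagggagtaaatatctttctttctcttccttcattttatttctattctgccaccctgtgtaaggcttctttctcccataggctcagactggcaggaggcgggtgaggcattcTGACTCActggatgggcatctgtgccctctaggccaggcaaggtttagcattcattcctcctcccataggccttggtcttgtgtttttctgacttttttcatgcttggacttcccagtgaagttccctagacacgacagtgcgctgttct
DLGAP1-AS6: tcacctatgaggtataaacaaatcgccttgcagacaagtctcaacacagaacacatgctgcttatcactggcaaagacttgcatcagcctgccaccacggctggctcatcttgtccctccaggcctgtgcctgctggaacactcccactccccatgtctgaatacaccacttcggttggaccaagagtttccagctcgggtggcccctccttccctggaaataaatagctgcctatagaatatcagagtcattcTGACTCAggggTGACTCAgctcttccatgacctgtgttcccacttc

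The DST window (chr6:56642840-56643139, minus strand) lay inside a plakin gene and held no TGANTCA, although its FOSL2 and JUNB fold enrichments were 10.1 and 8.32. Fold enrichment is the authors' linear ratio of signal over background for each region, and it was compared only within a list. PALLD encodes the actin-bundling protein palladin. Its window (chr4:168831845-168832144, plus strand) held 1 site at base 199, with the FOSL2 summit at base 165 and the JUNB summit at base 177 and fold enrichments of 11.3 and 6.36. The window of CREB5, a bZIP transcription factor gene (chr7:28685883-28686182, plus strand), had its site at base 207, with the summits at bases 206 and 224 and fold enrichments of 10.1 and 10.4. In VAV3, which encodes a guanine nucleotide exchange factor, the window (chr1:107688450-107688749, minus strand) had its site at base 135, and fold enrichments were 6.08 and 7.53. The KIAA1217 window (chr10:24466281-24466580, plus strand) had its site at base 141 and fold enrichments of 7.05 and 6.09. SYNE1-AS2 (chr6:152401996-152402295, plus strand) lies inside the gene of the nuclear envelope spectrin nesprin-1 and had 1 site at base 151, with fold enrichments of 11.5 and 7.90. DLGAP1-AS6 (chr18:3652780-3653079, plus strand) lies inside a gene of a postsynaptic scaffold protein and had 2 sites at bases 255 and 266, with summits at bases 258 and 273 and fold enrichments of 11.3 and 9.68.

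Few of the deep summits lay in such promoter windows. Of the deep FOSL2 summits 64 (0.856%) and of the deep JUNB summits 57 (1.72%) lay in any of these windows. The windows also took up little of the deep length, as 1293 windows of 300 bases were centred in 343 Mb of deep stretches. The share over all autosomal summits is not given here, and whether deep summits favoured the windows was not tested. Of the 69 windows with a deep FOSL2 summit 42 (60.9%) contained TGANTCA, as did 22 of the 62 (35.5%) with a deep JUNB summit and 19 of the 40 with both. Over all 33725 autosomal windows of the same length 7.67% contained it, and over the 1293 windows centred in deep stretches 13.2% did. The match is a string in 300 bases and was not tested as a site. The sequence of deep regions outside these windows was not used here.

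Most long genes were bound deep inside. At least 1 deep FOSL2 region was present in 705 of the 739 long genes (95.4%) and at least 1 deep JUNB region in 607 (82.1%). Both factors were present in 607 genes, FOSL2 without JUNB in 98, JUNB without FOSL2 in none, and neither factor in 34. The FOSL2 list was also the longer one, with 73751 against 39317 autosomal regions, and the part of list length in these counts was not tested. The median long gene (453 kb) held 8 deep FOSL2 regions (interquartile range 4 to 14) and 3 deep JUNB regions (1 to 6). At least 10 FOSL2 regions were present in 320 genes, and at least 10 JUNB regions in 98. The 74 genes with the most regions of each factor held 28.7% of all FOSL2 and 36.0% of all JUNB counts, in 17.5% and 13.7% of the summed deep length.

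Per 100 kb of deep sequence the 2 factors had 2.18 (FOSL2) and 0.963 (JUNB) regions over the 343 Mb of all deep stretches together. Single genes ranged from 0 to 11.3 per 100 kb for FOSL2, with a median of 2.19 (interquartile range 1.14 to 3.50). For JUNB they ranged from 0 to 7.73, with a median of 0.770 (0.249 to 1.58). The densities of the 2 factors went together across genes (Spearman's rho 0.89, Pearson's r 0.89 over 739 genes, as a description). Each gene gives both values from the same stretch, and many of the regions are the same sites. The JUNB count was above the FOSL2 count in only 4 genes, JAZF1, PCSK5, DIP2C and CHST11, which were named after their values were seen, and there by 1 or 2 regions.

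**Figure D1:**
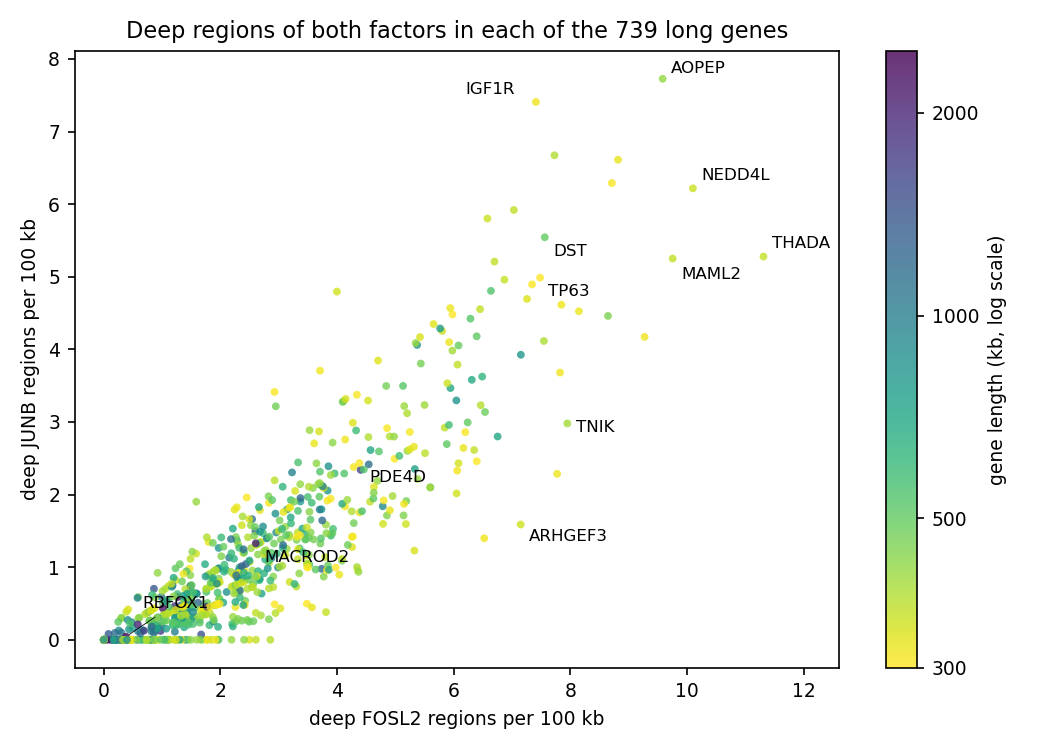
Each point is 1 of the 739 long genes, with its deep FOSL2 regions per 100 kb on the horizontal axis and its deep JUNB regions per 100 kb on the vertical axis, coloured by gene length on a log scale. The genes form 1 band in which FOSL2 is the denser factor. THADA lies farthest right at 11.3, AOPEP highest at 7.73, and RBFOX1, the longest gene, near the origin.

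The 10 densest genes of each factor had varied roles. THADA, a gene found rearranged in thyroid adenomas (chr2:43230851-43596038), was the densest for FOSL2, with 30 deep regions or 11.3 per 100 kb, and held 14 JUNB regions or 5.28 per 100 kb. Its strongest pair lay at the same place (JUNB region chr2:43293462-43294652), with fold enrichments of 10.8 (FOSL2) and 11.2 (JUNB) and summits 17 bp apart. AOPEP, which encodes an aminopeptidase (chr9:94726699-95150224), was the densest for JUNB, with 25 regions or 7.73 per 100 kb beside 31 FOSL2 regions or 9.58 per 100 kb. Its JUNB regions were dense rather than strong, with a median fold enrichment of 3.50, against 4.99 for all deep JUNB regions. This was not particular to AOPEP. Above the longest stretch of chromosome 9 without an annotated gene, where AOPEP lies, all 121 deep JUNB regions had a median of 3.97.

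IGF1R, the receptor for insulin-like growth factor 1, held 16 deep regions of each factor (7.41 per 100 kb), the second highest JUNB density. Its strongest pair, on chr15:98726991-98728228, had summits at the same base and fold enrichments of 9.78 and 9.49. NEDD4L, a ubiquitin ligase of epithelial sodium channels, held 26 FOSL2 and 16 JUNB regions (10.1 and 6.22 per 100 kb). MAML2, a coactivator of Notch signalling, held 26 and 14 (9.75 and 5.25).

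GNAQ, a G protein alpha subunit, held 20 and 9 (9.27 and 4.17). ARHGAP42 and ARHGAP26, which both encode GTPase-activating proteins, held 18 and 31 FOSL2 regions (8.71 and 8.64 per 100 kb) and 13 and 16 JUNB regions (6.29 and 4.46). PRKAG2, a regulatory subunit of AMP-activated kinase, held 18 and 10 (8.15 and 4.53). TNIK, a kinase of the Wnt pathway, held 24 FOSL2 regions and 9 JUNB regions (7.95 and 2.98), so its JUNB density ranked 65th of 739 while its FOSL2 density ranked 10th. Also among the 10 densest JUNB genes were RASAL2, a Ras GTPase-activating protein (6.67 per 100 kb), ABLIM1, an actin-binding LIM protein (5.92), the neurotrophin receptor gene NTRK2 (5.80) and DST (5.54).

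In DST and TP63 both factors were denser deep inside the gene than in its outer 100 kb (50 kb at each end). DST encodes dystonin, the plakin that links keratin filaments to hemidesmosomes (chr6:56457996-56954830). It held 30 deep FOSL2 and 22 deep JUNB regions, 18 of each shared, at 7.56 and 5.54 per 100 kb, while its outer 100 kb held 6 FOSL2 regions and 1 JUNB region. Its strongest deep FOSL2 region (12.9) was not shared, and its strongest deep JUNB region reached 9.76 at chr6:56663220-56663907. TP63, which encodes the master regulator of stratified epithelia (chr3:189596746-189897276), only just met the length limit at 300531 bp. It held 15 deep FOSL2 and 10 deep JUNB regions (7.48 and 4.99 per 100 kb), with 2 and 1 in its outer 100 kb. The strongest reached 9.82 (FOSL2) and 7.84 (JUNB, chr3:189833887-189834727). Of these deep regions, 4 of 15 and 1 of 10 lay on the 5′ side of the gene's midpoint.

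The other adhesion, polarity and transcription factor genes chosen by name were less dense than DST and TP63. LPP, a LIM protein of focal adhesions, held 34 FOSL2 and 15 JUNB regions (5.33 and 2.35 per 100 kb), and all 15 JUNB regions were shared. PARD3, a polarity scaffold at tight junctions, held 36 and 21 (5.94 and 3.47). MACF1, a spectraplakin that links actin to microtubules, held 15 and 6 (4.95 and 1.98). The nuclear receptor gene RORA held 16 and 7 (2.50 and 1.09), with a strong pair of 11.5 and 9.84 at chr15:60673673-60674483. BACH2, a bZIP repressor gene, held 6 and 2 (2.22 and 0.740), close to the medians of all long genes.

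In absolute number the leading gene was PDE4D, a cAMP phosphodiesterase gene of 1553 kb (chr5:58969038-60522128), with 64 deep FOSL2 and 34 deep JUNB regions (4.40 and 2.34 per 100 kb). These were uneven along the gene: 19 of the 64 and 11 of the 34 lay on the 5′ side of its midpoint. CAST, the gene of the calpain inhibitor calpastatin, and MACROD2 held 51 FOSL2 regions each, NRG1, an ERBB receptor ligand, held 47, and IQCJ-SCHIP1 held 44. RAD51B, a DNA repair gene, and NAV2 were among the 5 highest for JUNB, with 31 and 29 regions.

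Among the 10 longest genes the spread was wide. RBFOX1, a neuronal splicing regulator and the longest at 2474 kb, held 9 FOSL2 regions and 1 JUNB region (0.379 and 0.0421 per 100 kb), 8 of the 9 FOSL2 regions before its midpoint, and a stretch of 1265 kb without any FOSL2 region. CNTNAP2, a neuronal adhesion gene of 2304 kb, held 28 and 13, and 1 and 0 of these lay before its midpoint. The strongest FOSL2 region of CNTNAP2 reached 11.6 (chr7:147605119-147606093), and the gene held a stretch of 717 kb with none. PTPRD and CSMD1, a receptor phosphatase of 2299 kb and a complement-domain protein of 2060 kb, held 1 and 2 FOSL2 regions, with fold enrichments of at most 3.83, and no JUNB region. MACROD2, of 2058 kb, held 51 and 26 regions (2.61 and 1.33 per 100 kb), spread almost evenly about its midpoint (27 of 51 FOSL2 regions before it). DLG2 held 21 and 9, EYS 11 and 4, LRP1B 25 and 6, CTNNA3 31 and 8, and PCDH15 21 and 8.

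**Figure D2:**
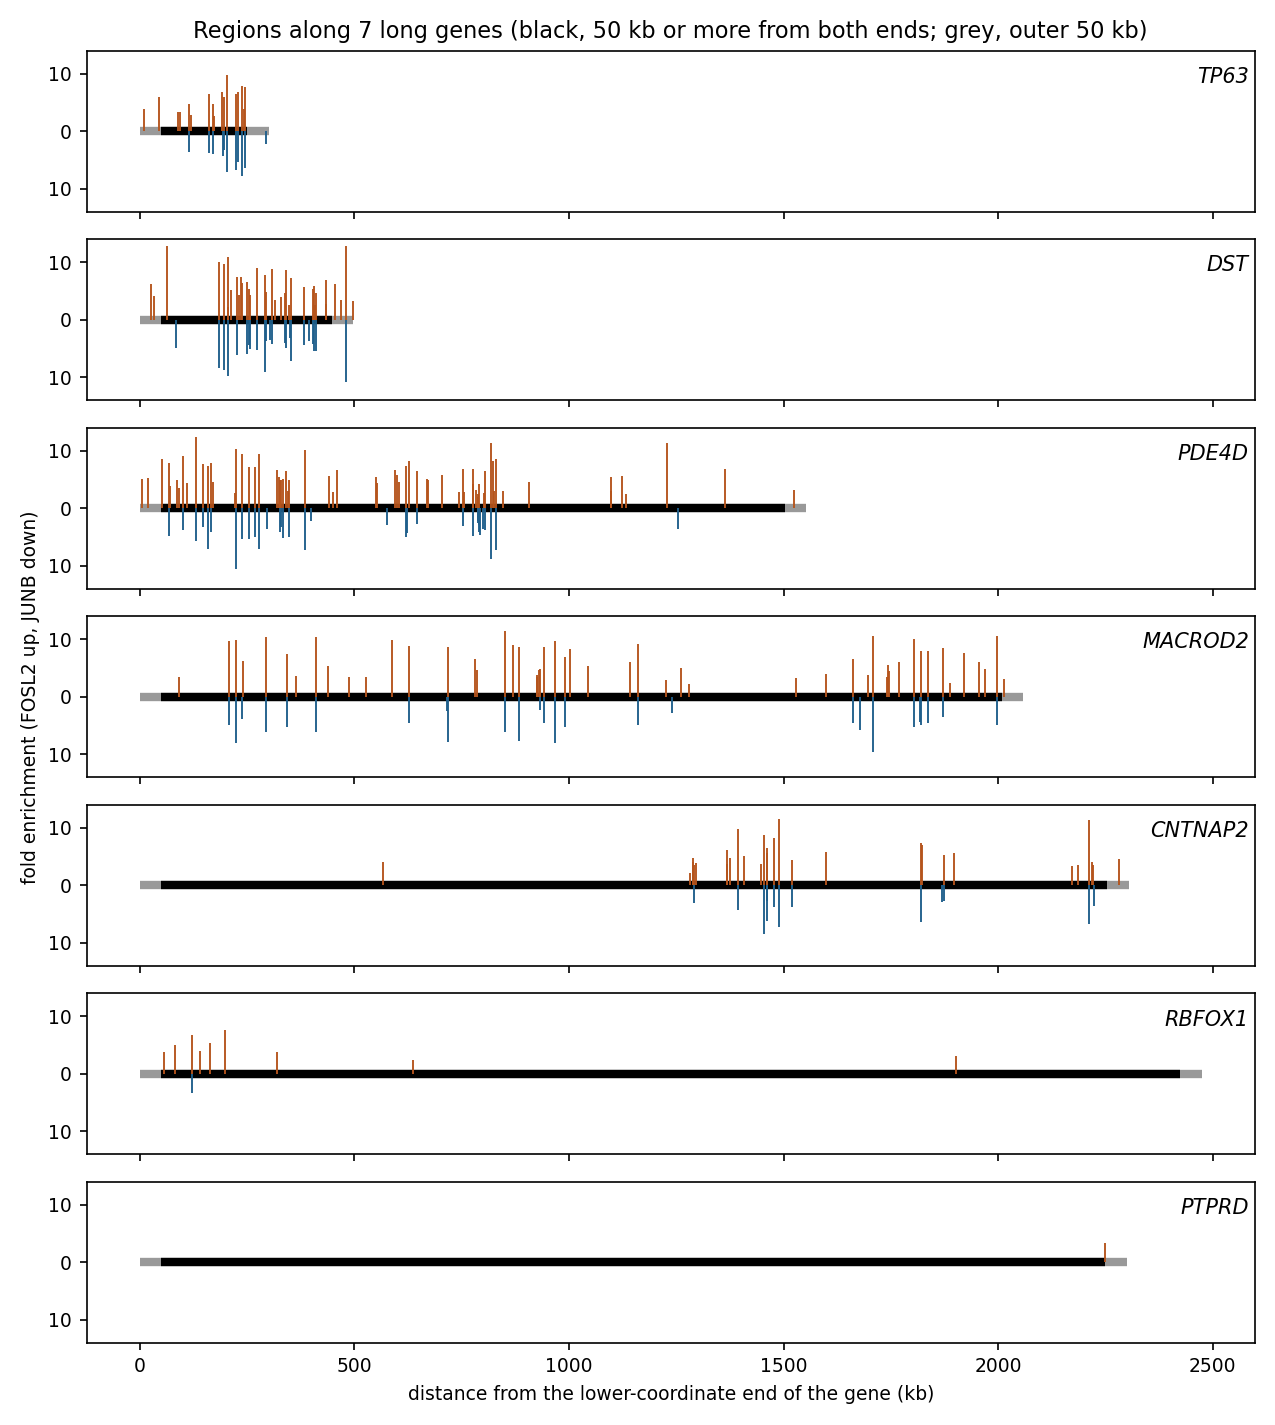
Regions along 7 long genes drawn to 1 scale, with the distance from the lower-coordinate end in kb on the horizontal axis and the fold enrichment of each region as a line, FOSL2 upwards and JUNB downwards. PDE4D carries the most regions (64 and 34), CNTNAP2 has 1 FOSL2 region and no JUNB region on the left of its midpoint, and PTPRD shows its single FOSL2 region at the far right.

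The 34 genes without any deep region of either factor were not only short members of the set. The longest were GPC5, a cell-surface heparan sulfate proteoglycan gene (1469 kb), SGCD, a sarcoglycan of muscle (1040 kb), ZNF385D (961 kb) and the neuronal adhesion gene CNTN4 (959 kb). DSCAM and MDGA2, also neuronal adhesion genes, followed at 836 kb each. PLCB1, a phospholipase C (753 kb), KHDRBS2 (744 kb), RALYL (739 kb) and SORCS1 (607 kb) completed the 10 longest. Of the 34, 24 had no region of either factor in their outer 100 kb as well, and SORCS1 had 2 FOSL2 regions there. The longest genes with FOSL2 but no JUNB were PTPRD, CSMD1, FHIT (5 FOSL2 regions), AGBL4 (8) and CTNNA2 (2). An empty gene is one without a region in these lists, and whether reads could be placed along it was not tested.

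Density fell with gene length. Genes of 300 to 400 kb held 2.97 FOSL2 and 1.39 JUNB regions per 100 kb of their pooled deep sequence. Those of 400 to 500 kb held 2.54 and 1.17, those of 500 to 750 kb 2.36 and 0.996, those of 750 to 1000 kb 1.93 and 0.902, and the 66 genes of at least 1000 kb 1.32 and 0.507. The share of genes with a region hardly moved, at 93.8%, 96.9%, 97.0%, 93.1% and 97.0% for FOSL2 in the same order. Across single genes the rank correlation of density with length was weak (Spearman's rho -0.24 for FOSL2 and -0.18 for JUNB, as a description over 739 genes).

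The same question was asked within the genes, by distance from the nearest end. In long genes FOSL2 density was 3.26 per 100 kb within 5 kb of an end, 2.68 at 5 to 10 kb and 2.50 at 25 to 50 kb. Deep in the gene it was 2.59 at 50 to 100 kb, 2.45 at 100 to 200 kb and 1.69 farther than 200 kb, a distance that only the longer genes reach. JUNB density ran from 1.798 within 5 kb to 1.21 at 50 to 100 kb, 1.08 at 100 to 200 kb and 0.719 beyond. Gene by gene, the outer 100 kb held FOSL2 regions more densely in 350 genes and less densely in 364, with 25 equal, and for JUNB in 298 and 345, with 96 equal. On either side of the limit itself, 166 FOSL2 and 79 JUNB regions had summits at 45 to 50 kb, and 203 and 85 had summits at 50 to 55 kb. Around the length limit, CACNA1A (300038 bp) held 7 and 2 deep regions, and HSD17B12 and NUBPL, just too short at 299895 and 299821 bp, would have held 3 and 3 and 2 and 1.

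**Figure D3:**
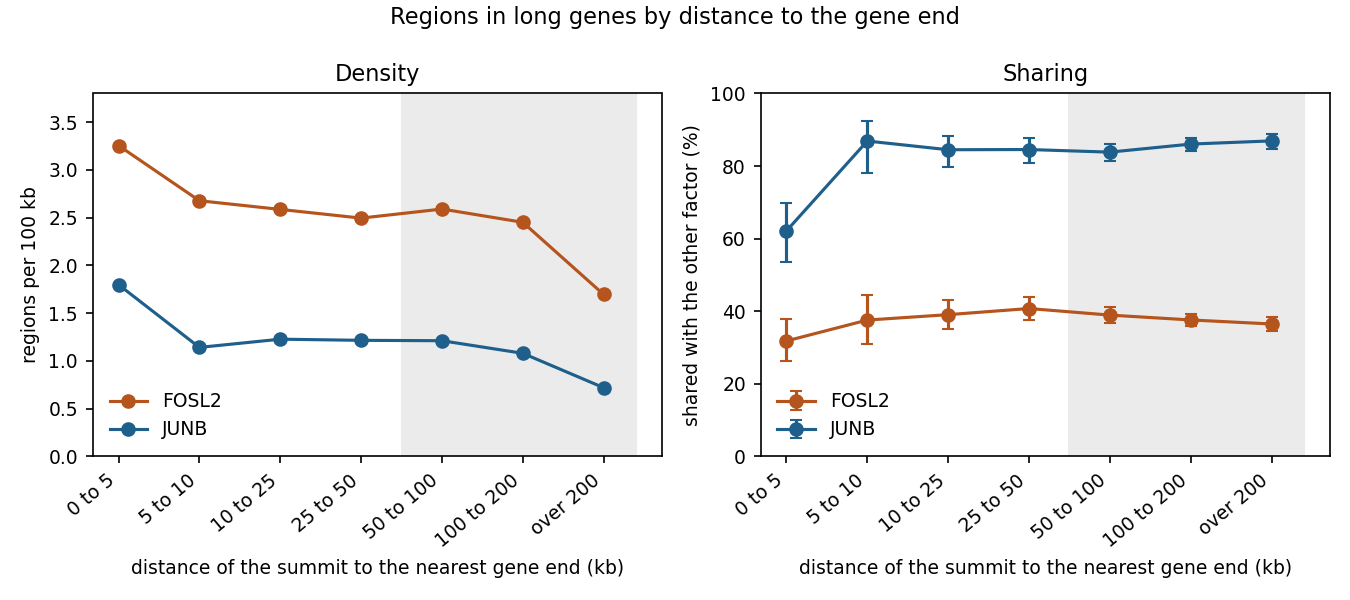
The left panel gives regions per 100 kb and the right panel the share shared with the other factor, by distance of the summit from the nearest end of the long gene, with 95% Wilson intervals in the right panel and the deep bins shaded. Density is highest within 5 kb of an end (3.26 for FOSL2) and lowest beyond 200 kb (1.69), and the JUNB share is 62.1% within 5 kb and 83.8% to 86.9% in the other bins.

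Gaps between regions varied widely. Neighbouring deep FOSL2 summits of a gene lay a median of 17.6 kb apart and a mean of 34.9 kb apart, and 17.8% of 6817 gaps were under 5 kb while 7.28% exceeded 100 kb. For JUNB the median gap was 23.9 kb and the mean 51.2 kb, with 15.7% of 2721 gaps under 5 kb. The longest stretch without a FOSL2 region had a median of 126 kb over the 739 genes, and without a JUNB region 208 kb. Summits fell evenly about the midpoint of the genes: where RefSeq gave the strand of a promoter window (597 genes), 49.5% of FOSL2 and 49.9% of JUNB summits lay on the 5′ side.

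Deep regions differed from the rest of each list in how often they were shared, in opposite directions for the 2 factors. These are not 2 independent results, because both shares count largely the same pairs and depend on how many regions each list holds. Deep regions numbered 7479 (FOSL2) and 3307 (JUNB), and the other autosomal regions 66272 and 36010. A region counted as shared when it overlapped any region of the other factor by 1 bp or more, as 41.4% of all autosomal FOSL2 and 78.3% of all JUNB regions did. Of the deep FOSL2 regions 2811 of 7479 were shared (37.6%, 95% Wilson interval 36.5 to 38.7), against 41.8% (41.4 to 42.2) of the other FOSL2 regions. Of the deep JUNB regions 2835 of 3307 were shared (85.7%, 84.5 to 86.9), against 77.7% (77.2 to 78.1) of the other JUNB regions. The odds of sharing were 0.838 for deep FOSL2 regions relative to the others (95% interval 0.798 to 0.881, adjusted p = 5.388e-12 by Fisher's exact test, two-sided, over 12 tests). For deep JUNB regions they were 1.73 (1.56 to 1.91, adjusted p = 3.6e-28 by Fisher's exact test). Here and below the tests count each region as independent, although regions of 1 gene are not. The intervals may therefore be too narrow and the p-values too small. Among the 10000 regions of highest fold enrichment in each list the FOSL2 odds ratio was 0.883 (two-sided Fisher's exact test, unadjusted p = 0.0601), no longer past the threshold.

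In the outer 100 kb of the same long genes 38.8% of FOSL2 regions (95% Wilson interval 36.65 to 41.0) and 81.6% of JUNB regions (79.0 to 83.9) were shared. The FOSL2 interval overlaps that of the deep regions and the JUNB interval does not, and neither difference was tested. Within 5 kb of an end 62.1% of JUNB regions were shared. At 5 to 10, 10 to 25 and 25 to 50 kb the JUNB share was 86.9%, 84.5% and 84.6%, near the 85.7% of deep regions. Inside shorter genes and at least 10 kb from both ends, 42.5% of FOSL2 and 81.9% of JUNB regions were shared, which gave odds ratios of 0.814 (0.769 to 0.860, Fisher's exact test, adjusted p = 1.162e-12) and 1.33 (1.19 to 1.49, adjusted p = 6.219e-07). Outside protein-coding genes the shares were 41.1% and 78.5%, with odds ratios of 0.863 (0.819 to 0.908, Fisher's exact test, adjusted p = 3.285e-08) and 1.65 (1.49 to 1.83, adjusted p = 2.523e-22). Both factors were sparser deep in long genes than in the shorter genes, where densities were 3.26 FOSL2 and 1.71 JUNB regions per 100 kb. Outside genes the densities were 2.25 and 1.19, over a length that includes unsequenced stretches. Deep in long genes the ratio of FOSL2 to JUNB regions was 2.26, from densities of 2.18 and 0.963. Over all other autosomal regions the densities were 2.62 and 1.42, so JUNB was relatively sparser deep in long genes. The part of this lower JUNB density in the lower FOSL2 share was not tested.

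**Figure D4:**
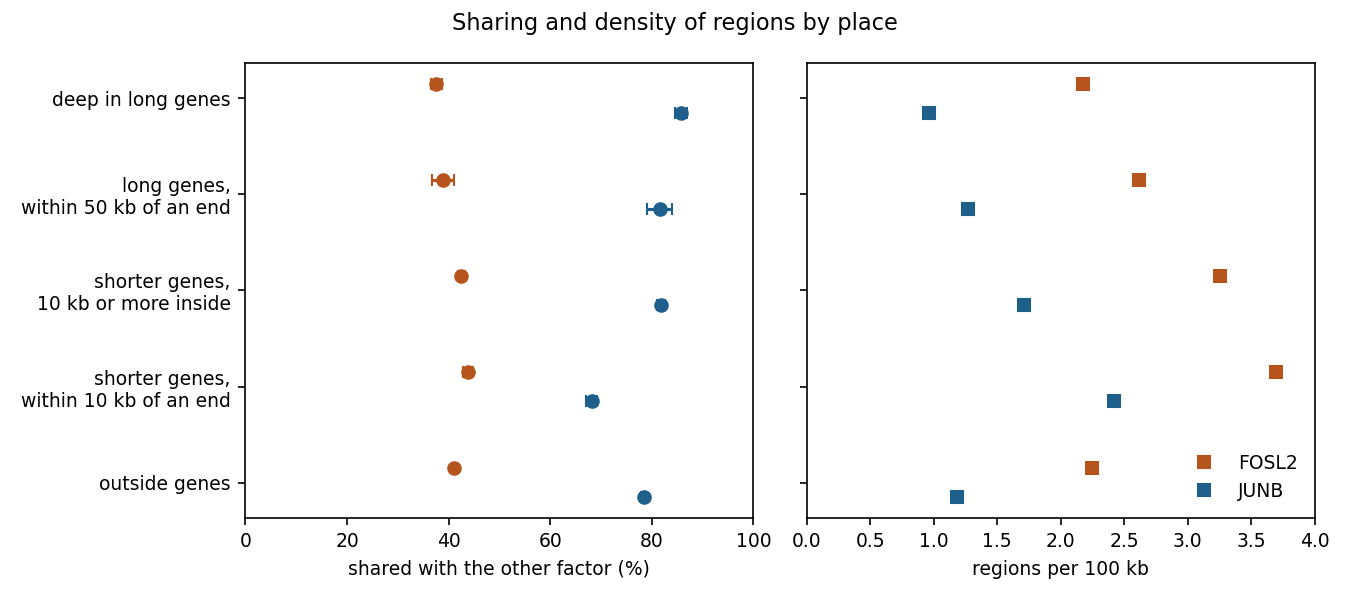
The left panel gives the share of regions shared with the other factor, with 95% Wilson intervals that are often narrower than the points, and the right panel regions per 100 kb, for 5 places on the autosomes. Deep regions have the highest JUNB share (85.7%) and the lowest FOSL2 share (37.6%) of the 5 places, and the lowest density of both factors. Near the ends of long genes the JUNB share was 62.1% within 5 kb and 84.5% to 86.9% at 5 to 50 kb.

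Shares were also set side by side at matched strength. Each list was divided into 5 groups of equal size by fold enrichment. In the middle group 31.8% of deep FOSL2 regions were shared (95% Wilson interval 29.5 to 34.2), against 38.1% of the others (37.3 to 39.0), and in the weakest group 6.46% (5.32 to 7.82) against 10.3% (9.75 to 10.8). For JUNB the middle group gave 89.3% (86.7 to 91.5) against 82.9% (82.04 to 83.78), and the weakest 56.4% (52.4 to 60.4) against 46.5% (45.4 to 47.7). Inside shorter genes, at least 10 kb from both ends, the middle group gave 36.0% (34.4 to 37.6) for FOSL2. For JUNB it gave 88.7% (87.1 to 90.1), close to the deep share. The other JUNB groups were less close. The weakest gave 48.4% (46.1 to 50.8) in shorter genes, and the second weakest 77.2% against 81.4% deep. The second strongest gave 94.6% (93.5 to 95.5) against 97.5% (96.1 to 98.4) deep. In the strongest group deep regions and all others came closer, at 78.1% against 80.8% for FOSL2 and 98.2% against 96.8% for JUNB. The differences within these groups were not tested.

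Strength itself was nearly the same as elsewhere. The median fold enrichment was 5.63 in deep FOSL2 regions (interquartile range 3.85 to 8.05) and 5.52 in the others. It was 4.99 in deep JUNB regions (3.75 to 6.74) and 4.75 in the others. The share at or above the median of the list was 51.2% for deep FOSL2 regions (odds ratio 1.06 against the others, 95% interval 1.01 to 1.11, Fisher's exact test, adjusted p = 0.0375) and 53.7% for deep JUNB regions (odds ratio 1.18, 1.09 to 1.26, adjusted p = 1.576e-05). Against regions inside shorter genes neither factor passed the threshold, with odds ratios of 0.982 (0.930 to 1.04, Fisher's exact test, adjusted p = 0.563) and 1.02 (0.944 to 1.11, adjusted p = 0.583). Against regions outside protein-coding genes JUNB passed (1.10, 1.03 to 1.19, Fisher's exact test, adjusted p = 0.0135) and FOSL2 did not (1.05, 1.00 to 1.11, adjusted p = 0.0512). The FOSL2 call against all others was lost in genes of at least 500 kb (1.06, Fisher's exact test, unadjusted p = 0.0734), at 100 kb from both ends (1.04, p = 0.140) and among the 10000 strongest regions (1.12, p = 0.0916). Among the 10000 strongest regions of each list the JUNB odds ratio was 0.910 (0.794 to 1.04, two-sided Fisher's exact test, unadjusted p = 0.181), not past the threshold. In that setting the strength cut was the median of the 10000 regions kept. Deep regions were slightly narrower than the others, with median widths of 627 against 645 bp for FOSL2 and 556 against 569 bp for JUNB.

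Within the deep set, shared regions were the stronger ones: median fold enrichments were 8.08 (shared) and 4.43 (not shared) for FOSL2, and 5.35 and 3.31 for JUNB. The other autosomal regions showed the same split, with 7.79 and 4.365 for FOSL2 and 5.275 and 3.44 for JUNB. The 2 summits of a deep pair were typically close, with a median distance of 32 bp (11 to 66 for the middle 50% of 2811 pairs), and in pairs elsewhere the median was 31 bp. Log2 fold enrichments of the 2 factors went together across deep pairs (Pearson's r 0.71, Spearman's rho 0.71), which are regions of 1 genome and not replicates. In pairs elsewhere these values were 0.72 and 0.73.

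Dense genes shared more of their FOSL2 regions than sparse ones. The long genes were ordered by FOSL2 density into 4 groups of 184 or 185. In the sparsest group (up to 1.13 per 100 kb) 21.1% of FOSL2 regions were shared (95% Wilson interval 17.9 to 24.7). The share was 29.4% and 35.3% in the next groups. It reached 45.5% (43.8 to 47.2) in the densest group, from 3.50 per 100 kb. Median FOSL2 fold enrichment differed little over the same groups, at 5.31, 5.72, 5.71 and 5.61, and the JUNB share showed no such order, at 84.9%, 86.1%, 83.2% and 87.1%. JUNB also grew denser over these groups, with median densities of 0, 0.483, 1.16 and 2.43 per 100 kb. The sparsest group held 554 FOSL2 and 139 JUNB regions, and the densest 3284 and 1727. The part of this rise in JUNB in the FOSL2 share was not tested. Regions of 1 gene are not independent, so these values are a description.

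Of the 1000 regions of highest fold enrichment in each list 117 FOSL2 and 96 JUNB regions were deep, near the 10.1% and 8.41% of all autosomal regions that were deep. The strongest deep FOSL2 regions were in ANXA8 (19.4), the glutamate receptor gene GRM5 (18.1, chr11:88930182-88931023), HYDIN (15.9), SNX29 (15.2) and the potassium channel gene KCNB2 (15.1), and all 5 were shared. ANXA8 and HYDIN have near-identical copies elsewhere in the genome, so their values are uncertain. The strongest deep JUNB regions were in FGGY (17.9, chr1:59374998-59375855), PCCA, a subunit of propionyl-CoA carboxylase (13.7), HYDIN (13.5), CDKAL1 (13.1) and SNX29 (12.8), again all shared. The SNX29 pair had summits 6 bp apart and lay 60.4 kb from the nearest gene end.

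Strong deep regions of 1 factor alone were also present. For FOSL2 they were in FSTL5 (14.2, chr4:161713704-161714647), CCSER1 (14.2), the kinase gene MAPK10 (14.1), the axon guidance receptor gene ROBO1 (13.9) and CDKAL1 (13.5), at 118 to 654 kb from the nearest end of the long gene. For JUNB they were in the potassium channel gene KCNMA1 (10.7, chr10:77350416-77351303), KALRN (10.0), PCCA (8.37), RAD51B (8.03) and GMDS (7.94). The KCNMA1 summit lay in a promoter window of that gene and in one of KCNMA1-AS3.

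Gene groups were set side by side by their densities, using 6 lists written from textbook knowledge. The lists were chosen with earlier results of these data known, so their order is a description and not independent support. Of the 46 long genes for epithelial adhesion, polarity and the cytoskeleton, all 46 had a deep FOSL2 region and 42 (91.3%) a deep JUNB region, against 95.4% and 82.1% of all long genes. Their median densities were 3.33 FOSL2 and 1.54 JUNB regions per 100 kb, against 2.19 and 0.770 over all long genes, and 32 and 33 of the 46 lay above those medians. ARHGAP26, DST and ABLIM1 were the densest. Of the FOSL2 regions in this group 42.4% were shared.

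Transcription and chromatin regulators were close to that group, with a FOSL2 region in 46 of 46 and a JUNB region in 42 of 46 genes and median densities of 2.83 and 1.38. MAML2 and TP63 were among its densest members. Kinases, receptors and signal mediators had a FOSL2 region in 41 of 43 and a JUNB region in 39 of 43 genes, with medians of 2.46 and 1.04. The bound shares were 100% and 91.3% for the regulators and 95.35% and 90.7% for the kinase group. Over all long genes they were 95.4% and 82.1%. NEDD4L, IGF1R and RASAL2 led this group, and PLCB1 and PRKD1 were its empty members.

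Matrix and secreted proteins had a FOSL2 region in 34 of 36 genes (94.4%) and a JUNB region in 27 of 36 (75%). Over all long genes these shares were 95.4% and 82.1%. The median densities of the group were 2.02 and 0.491. The group ranged from FNDC3B, a fibronectin-domain protein (6.87 and 4.96 per 100 kb), EXT1, a heparan sulfate polymerase (7.82 and 3.68), and THSD4 (6.31 and 3.58) to the empty GPC5 and COL22A1.

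Neuronal adhesion, synapse and ion channel genes had the lowest medians, 1.35 FOSL2 and 0.332 JUNB regions per 100 kb. Whether HaCaT cells express them was not measured here. A FOSL2 region was still present in 96 of 103 of these genes (93.2%) and a JUNB region in 77 (74.8%). Over all long genes these shares were 95.4% and 82.1%. Of the 103, 26 and 29 lay above the medians of all long genes. CHRM3, a muscarinic receptor (5.13 and 3.50 per 100 kb), SORCS2 (3.33 and 2.44) and the glutamate receptor gene GRIA1 (4.91 and 1.78) led. CNTN4, DSCAM and MDGA2 were its longest empty members. These genes were also longer, with a median of 780 kb against 453 kb for all long genes, and the part of length in their low density was not tested. They shared the fewest FOSL2 regions (31.3%) and the most JUNB regions (88.9%) of the 6 lists. Median fold enrichment in the group was 5.67 for FOSL2 and 5.20 for JUNB, against 5.63 and 4.99 over all deep regions.

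The 23 genes at common fragile sites, 16 of which are also in other lists, had a median length of 1174 kb. All 23 had a FOSL2 region and 20 (87.0%) a JUNB region, against 95.4% and 82.1% of all long genes. Their median densities were 1.39 and 0.590. PDE4D, AUTS2 and THSD7B led, and FHIT and WWOX belong to the same list. Differences between the lists were not tested.

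**Figure D5:**
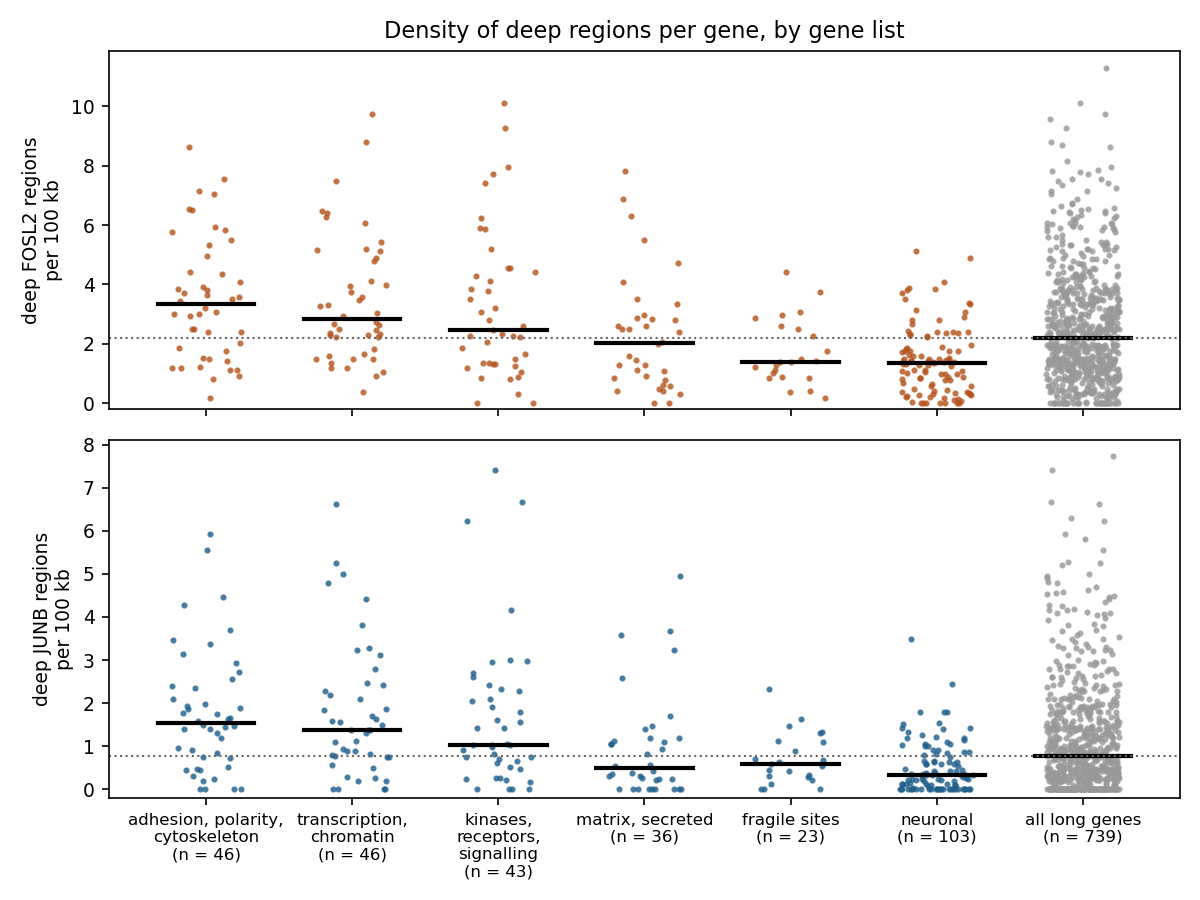
Each point is 1 long gene, with deep FOSL2 regions per 100 kb in the upper panel and deep JUNB regions in the lower, by gene list. Black bars are medians, the dotted line is the median of all 739 long genes (2.19 and 0.770), and points are spread sideways for visibility. Medians run from 3.33 and 1.54 in the adhesion, polarity and cytoskeleton list to 1.35 and 0.332 in the neuronal list, and the lists overlap widely.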

How the data were processed

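ChIP-seq of HaCaT cells gave 3 libraries for FOSL2 and 3 for JUNB, and 1 list of narrow peaks for each factor was deposited. Bowtie2, SAMtools 1.8, Picard 1.89, MACS2, deepTools and hg38 are named, without order or options, per the submitters' processing notes. For how the libraries were combined and which control was used, the sources used here give nothing. Each deposited row carries a linear fold enrichment (a ratio), a −log10 q and a summit offset in bp. The depth per library is unknown.

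Summits were placed at the region start plus the deposited offset, and printed coordinates count from 1 in hg38. Gene positions, biotypes and promoter sequences came from RefSeq GRCh38.p14, which shares chromosome coordinates with hg38. A summit inside overlapping long genes counted once in totals (43 FOSL2 and 21 JUNB regions lay in more than 1 long gene). Shares have 95% Wilson intervals. Classes were compared by two-sided Fisher's exact tests with conditional odds ratios, with Benjamini-Hochberg adjustment over 12 tests and a threshold of 0.05 (SciPy 1.17.1, pandas 2.3.3). Overlap and position lookup were tested on simulated data. Of the 367 distinct genes written in the 6 lists, 365 matched a RefSeq symbol.

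The members and lists were chosen with earlier results of these data known. Genes were named by rule: per factor the 10 densest and the 5 with most regions, the 10 longest, the 10 longest empty and the 5 longest with 1 factor, the 5 strongest regions and the 5 strongest not shared per factor, the 3 densest and up to 3 empty genes per list, those at the length limit, and LPP, DST, MACF1, PARD3, RORA, BACH2, CNTNAP2, CSMD1 and RBFOX1. Some genes that the rule names are not reported here. Alternatives were other length and distance limits, stricter lists, other overlap rules and leaving out summits near any coding gene end.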

Additional observations from a re-analysis of the deposited data

How the results depend on the processing

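No paired analysis was possible because each factor had 1 list with no value per library, and leaving out a replicate was likewise not run. Of the values recomputed, 61 stayed on the same side of the threshold, within their interval or, for counts, within 1.5 times the reported count. Of the other values under the alternatives, 33 moved, 4 missed the threshold, and 1 changed direction and also missed it. Deep regions per 100 kb were 2.18 and 0.963 with all settings as reported. Results are given for FOSL2 and then JUNB.

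Deep regions per 100 kb (2.18 and 0.963) became 2.37 and 1.10 in genes of at least 200 kb, 1.84 and 0.780 in genes of at least 500 kb, and 2.07 and 0.895 at 100 kb from both ends. A −log10 q of at least 10 gave 1.71 and 0.648, and 0.310 and 0.274 remained with the 10000 regions of highest fold enrichment. Long genes with a deep region (705 and 607) numbered 1250 and 1041 of 1340 from 200 kb and 291 and 251 of 303 from 500 kb, and 482 and 446 of 739 with the 10000 strongest regions. Genes with neither factor (34) numbered 88 and 12 at those lengths, 57 at 100 kb from both ends, 57 with −log10 q of at least 10, and 214 with the 10000 strongest regions.

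The FOSL2 share (37.6%) was 39.0% from 200 kb, 36.4% from 500 kb, 35.7% with −log10 q of at least 10, 56.3% with the 10000 strongest, 31.0% with a reciprocal overlap of 50% and 33.3% with summits within 100 bp. The JUNB share (85.7%) was 94.3%, 63.6%, 70.2% and 75.3% under the last 4 of these. The FOSL2 sharing odds ratio (0.838) was 0.883 with the 10000 strongest, where it missed the threshold, and the JUNB sharing odds ratio stayed above 1 and past the threshold under each alternative run. The FOSL2 strength odds ratio (1.06) was no longer past the threshold from 500 kb (1.06), at 100 kb from both ends (1.04) and with the 10000 strongest (1.12). The JUNB strength odds ratio (1.18) was 0.910 with the 10000 strongest, with an interval that covers 1 (0.794 to 1.04). In the stricter lists the strength cut was the median of the regions kept, so it was not the cut used above. Fewer regions or genes enter the stricter settings, and the cause of these shifts was otherwise not tested.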

Other observations

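Deep regions were unevenly placed along some chromosomes. Each chromosome was divided at its longest stretch without an annotated gene, and 14 chromosomes had at least 5 long genes on each side. On chromosome 9, the 13 long genes below the stretch held 1.31 FOSL2 and 0.386 JUNB regions per 100 kb, and the 13 above it, among them AOPEP, GNAQ and NTRK2, held 4.02 and 2.44. On chromosome 3, the 40 long genes below held 1.20 and 0.378, and the 29 above, among them TP63, LPP and TNIK, held 3.26 and 1.49. The ratio of the denser to the sparser side was 3.07 for FOSL2 on chromosome 9 and 2.71 on chromosome 3, and the next was 2.27, on chromosome 16. For JUNB it was 6.32 on chromosome 9, 4.32 on chromosome 16 and 3.95 on chromosome 3.

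The imbalance on chromosomes 9 and 3 was also present over all regions of the lists, with ratios of 2.40 and 1.88 for FOSL2 and 3.63 and 2.32 for JUNB, whereas on chromosome 16 those were 1.16 and 1.14. All 7 of the empty long genes of chromosome 3 lay below its stretch, CNTN4 and ZNF385D among them. On chromosome 9 the median fold enrichment of deep regions went the other way, 7.07 below against 4.44 above for FOSL2 and 7.64 against 3.97 for JUNB. The sides were compared after the densest genes had been seen, none of these differences was tested, and the copy number of the chromosomes was not measured here.

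Deep regions overlapped 5 of the microRNA hairpins in the RefSeq table. The number of hairpins in deep stretches is not given here, so this count cannot be read as many or few. MIR583, inside CAST, lay under regions of both factors, whose fold enrichments were 8.17 for FOSL2 and 5.45 for JUNB. FOSL2-only regions covered MIR4799 in ARHGAP10 (5.12) and MIR4295 in VTI1A (4.87). MIR214 and MIR3120 in DNM3 overlap each other and lay under the same FOSL2-only region (3.23).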
